A study of Arabidopsis thaliana with 12 samples.

Results

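The 4 two-colour arrays described here compared inflorescences of Arabidopsis thaliana at day 8 with inflorescences at day 4 of an induced, nearly simultaneous start of flower formation. They were taken from the 12 arrays of a time series by their labels alone, as the arrays on which 4d and 8d samples were hybridised together, and all 28327 loci on the array were considered. Every plant at both days carried the transgene pAP1:AP1-GR in an ap1-1 cal-1 background, and every plant at both days was treated daily with 2 µM dexamethasone (Dex). AP1-GR is the MADS-domain protein APETALA1 fused to the hormone-binding part of the glucocorticoid receptor. It enters the nucleus once Dex is given, and it is made only where the AP1 promoter is active. Tissue of many plants was pooled for each sample, and the 4 sets of samples were independent according to the methods of the study. Day 8 was the Cy5 channel in replicates 1 and 3 and the Cy3 channel in replicates 2 and 4. No mock-treated sample of these days was analysed here, so the stage of the flowers, the age of the plants and the number of Dex applications cannot be told apart.

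Plants that lack both AP1 and its paralogue CAULIFLOWER (CAL) form masses of meristems in place of flowers, and restoring AP1 activity turns these meristems into flowers together. A young flower first marks out its organs under homeotic MADS-domain factors (sepals and petals outside, stamens and carpels inside), and then the organs grow, stop dividing in part, expand and form their tissues. The tapetum that feeds the pollen, the sporogenous cells that enter meiosis, the style and the ovules, and the cuticle that coats the epidermis are laid down in this later phase. The arrays of day 4 and day 8 bear on this phase, and the question the comparison answers is which transcripts differ in level between its start and a point 4 days later.

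Each value below is a change on the log2 scale, day 8 over day 4, so that a positive value is a higher level at day 8. The value of a locus comes from its brightest probe and is the fitted mean of the 4 arrays with its standard error (SE). A probe was called changed when the limma adjusted p was below 0.05 and the change was at least 1.8-fold, and a locus was called when at least 1 of its probes was. Values are relative amounts in RNA from whole inflorescences, in which fewer cells of a type and less RNA per cell cannot be told apart.

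Of the 14 floral organ identity MADS genes on the array, 11 were well above background in every day 4 channel and 12 in every day 8 channel. The 4 arrays correlated with each other across 27767 to 28219 probes with Pearson's r from 0.750 to 0.855, a description over probes that share their arrays. Replicate 2 stood apart in its scan. It was scanned separately from the other arrays of its slide, 66.5% and 73.6% of its probes were well above background in the Cy3 and Cy5 channels against 55.7% to 62.6% in the channels of the other 3 arrays, and 1336 of its probes were marked as uneven or outlying against 14 to 89. Replicate 1 had the widest ratios, with 24.3% of probes beyond 1.8-fold against 19.7% to 20.4% on the others. Replicates 1 and 2 lay on one slide and replicates 3 and 4 on another.

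Among 20906 loci tested, 3821 were called changed from day 4 to day 8 (18.3%). Of these, 2657 were higher at day 8 (12.7%) and 1163 were lower (5.56%), and 1 locus had probes called in both directions. Increases were also the larger ones. At least 4-fold differences of the brightest probe numbered 956 higher and 72 lower, and at least 16-fold differences numbered 150 higher and 3 lower. The median change over all loci tested was -0.08. The higher calls made up 69.5% of all calls, and this share moved with the scaling: it was 76.0% when each array's median was set to 0, 84.7% after loess without background correction and 79.7% after normexp background correction and loess. With no fold minimum the majority turned, and 40.8% of the calls were higher (5121 higher and 7414 lower). Calls depended on the background correction. After normexp on each spot's background and loess, 634 loci were called. There, 93 of the 137 called loci named by rule lost their call or changed sign, against 27 after loess without background correction. That normexp setting lifted the lower quartile of the signals from 29.0 to 110.5 up to 59.3 to 1359. Counts after normexp and loess, here and below, rest on signals lifted in this way. With 1 background value per channel, a setting added after seeing the data, 2306 loci were called and 33 of the 137 lost their call. Loess without background correction moved the median of all loci from -0.08 to 0.03. Estimated within each slide, the comparison gave 4074 called loci on the slide of replicates 1 and 2 and 3474 on the slide of replicates 3 and 4.

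The spread between arrays was not even. The median standard deviation (SD) over the 4 arrays was 0.22 for all loci tested, 0.53 for loci called higher and 0.30 for loci called lower. Of the 2566 loci whose brightest probe was called higher, 2371 were positive on all 4 arrays, and of the 1094 called lower, 1028 were negative on all 4. A part of the calls had no measured level at one of the days. For 301 loci called higher the brightest probe was not well above background in any day 4 channel, and for 62 called lower it was not in any day 8 channel. Folds of such loci are given as bounds ("at least"), computed from the lowest signal well above background on each array. Array values printed for them are the deposited ratios, in which the dim day is a value near background. Both days were well above background on all 4 arrays for 1645 loci called higher and 891 called lower.

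**Figure D1:**
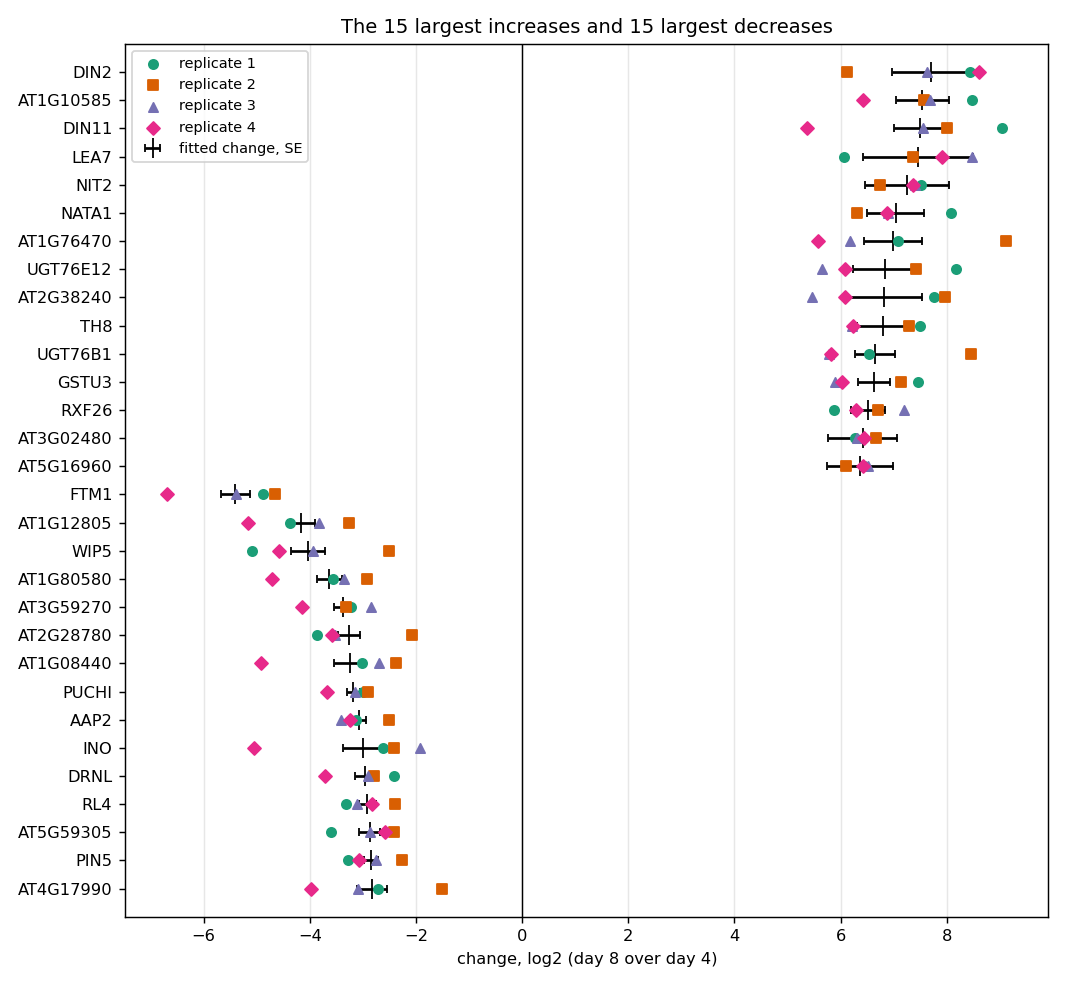
Change from day 4 to day 8 on the log2 scale (x axis) for the 15 loci with the largest increase and the 15 with the largest decrease among those called and changed in one direction on all 4 arrays (y axis). Coloured points are the 4 replicates and black bars the fitted change with its SE; fitted increases reached 7.70 (DIN2, day 4 well above background in 1 of 4 channels) and decreases -5.41 (FTM1), and replicate 4 was the lowest of the 4 for FTM1, DRNL and INO.

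The 15 largest fitted increases rest in large part on dim day 4 values. Day 4 was well above background in all 4 channels for 4 of these loci, in 1 to 3 channels for 10 and in none for 1, so their sizes and order are those of the fit. DIN2 (AT3G60140), a beta-glucosidase gene known as induced in darkness, came first. Its 4 arrays gave 8.44, 6.13, 7.62 and 8.60, and its fitted change was 7.70 ± 0.74 (mean of n = 4 arrays, SE from the fit to all arrays, adjusted p = 3.6e-06). All 4 arrays were above 6, and day 4 was well above background in only 1 of 4 channels. NIT2 (AT3G44300), which encodes a nitrilase able to form indole-3-acetic acid, had signals of 208, 263, 138 and 207 at day 4 and of 37984, 28212, 23252 and 34021 at day 8. The lowest day 8 signal was thus far above the highest day 4 signal, and its change was 7.25 ± 0.80 (adjusted p = 1.1e-05) with an SD over arrays of 0.34. LEA7 (AT1G52690), a late embryogenesis abundant protein gene, rose by 7.45 ± 1.04 with 6.07, 7.37, 8.47 and 7.91 on the arrays. NATA1 (AT2G39030), an N-acetyltransferase gene, rose by 7.04 ± 0.53, and DIN11 (AT3G49620), another gene named for its induction in darkness, by 7.49 ± 0.48. The glucosyltransferase gene UGT76E12 (AT3G46660) was not well above background in any day 4 channel and was at least 42.8-fold higher at day 8. Its relative UGT76B1 (AT3G11340) rose by 6.65 ± 0.38, with 8.46 on replicate 2 and 5.78 to 6.53 on the others. The thioredoxin gene TH8, the glutathione transferase gene GSTU3 and RXF26 rose by 6.81 ± 0.50, 6.63 ± 0.30 and 6.52 ± 0.32. The remaining 5 of the 15 largest increases carry only locus names. They were AT1G10585 (7.54), AT1G76470 (6.99), AT2G38240 (6.82), AT3G02480 (6.42) and AT5G16960 (6.37).

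The largest decrease was that of FTM1 (AT1G43800), which encodes a stearoyl-acyl carrier protein desaturase and is named for the floral transition at the meristem. Its signals were 7984, 4687, 6550 and 12232 at day 4 and 271, 185, 156 and 119 at day 8, with no overlap between the days. It fell by 5.41 on the log2 scale (SE 0.27, adjusted p = 4.3e-08), a 42.4-fold difference. AT1G12805 fell by 4.16 and AT3G59270 by 3.38. WIP5 (AT1G51220), a WIP-domain zinc finger gene, was not well above background in any day 8 channel and was at least 3.94-fold lower there. Regulators of organ founder cells and of ovules stood among these loci as well: PUCHI, DRNL and INO are described below. AAP2 (AT5G09220), an amino acid permease gene, fell by 3.07 ± 0.13, PIN5 (AT5G16530), an auxin carrier gene of the endoplasmic reticulum, by 2.84 ± 0.13. The RADIALIS-like gene RL4 (AT2G18328) had a change of -2.91 ± 0.16. For each of these 3 genes, replicate 2 gave the smallest decrease, at -2.50, -2.26 and -2.40.

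The 20 gene lists below were used to describe the interval by the roles of the genes, each read against the 12.7% of all loci called higher and the 5.56% called lower.

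**Figure D2:**
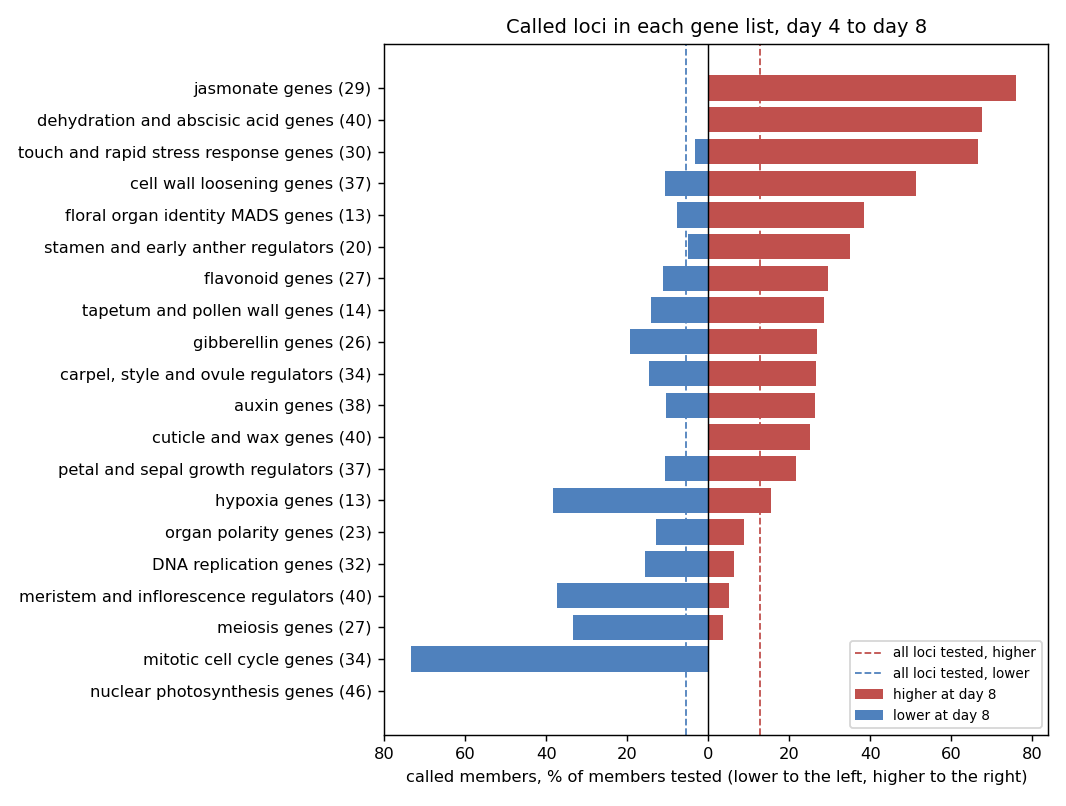
Share of the tested members of each gene list called higher at day 8 (right, red) or lower (left, blue), in percent (x axis), by list with the number of members tested (y axis). Dashed lines mark the shares over all 20906 loci tested, 12.7% higher and 5.56% lower; the jasmonate list reached 75.9% higher and the mitotic list 73.5% lower.

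**Figure D3:**
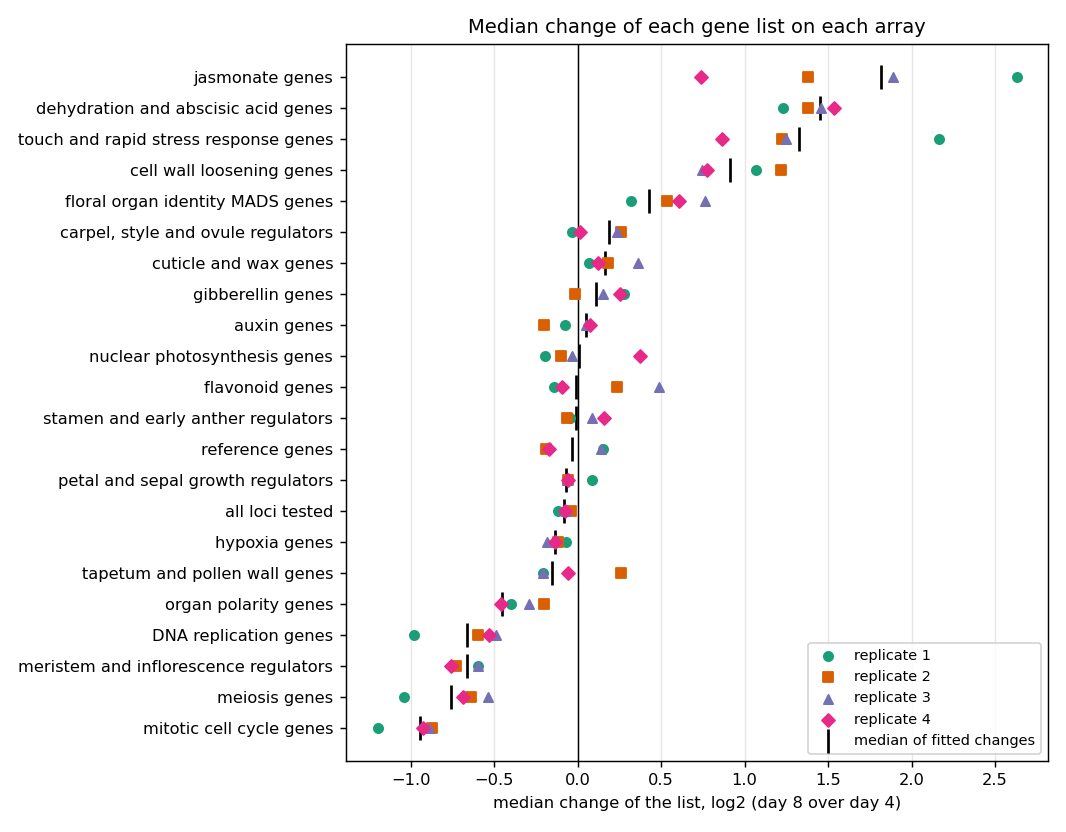
Median change of each gene list on each of the 4 arrays (coloured points, log2 day 8 over day 4, x axis) and the median of the fitted changes (black bar), by list (y axis). Among the 20 lists by role the jasmonate and touch lists differed most between arrays, from 0.74 to 2.63 and from 0.86 to 2.16, whereas the mitotic list lay between -1.20 and -0.87.

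Of 40 genes tested that maintain meristems and mark inflorescences, 15 fell, 2 rose and 23 were not called, and the median change was -0.66 with array medians from -0.76 to -0.60. PUCHI (AT5G18560), an AP2/ERF gene of young floral meristems, gave -3.00, -2.91, -3.15 and -3.68 and fell by 3.18 on the log2 scale (SE 0.12, adjusted p = 1.4e-08). The arrays lay close together, and each of its 3 probes was called. The size depended on the background correction. It was -1.99 after loess without background correction and -0.50 after normexp and loess, where the call was lost (limma adjusted p = 0.13). CLV3 (AT2G27250), the peptide ligand that limits stem cell number, gave -1.59, -1.52, -2.16 and -3.43 and fell by 2.18 ± 0.25, with replicate 4 the lowest. Its receptor kinase gene CLV1 fell by 1.13 ± 0.06. SAP (AT5G35770), an F-box gene of inflorescence and flower development, fell by 2.15 ± 0.17, and FD (AT4G35900), a bZIP gene whose product acts with the flowering signal FT, fell by 1.40 ± 0.09. The MADS genes of flowering time SVP and AGL24 fell by 1.38 ± 0.10 and 1.36 ± 0.06. STM (AT1G62360), the homeodomain gene that keeps shoot meristem cells undifferentiated, had signals of 36578, 31814, 33016 and 42759 at day 4 and 21750, 13347, 18902 and 16050 at day 8. The days did not overlap, and STM fell by 1.06 ± 0.07. LFY, the regulator of floral meristem identity, fell by 1.08 ± 0.10, its coregulator UFO by 0.99 ± 0.12, CAL by 1.1 ± 0.07 and the organ boundary gene CUC2 by 0.91 ± 0.09. Since every plant carried cal-1, the CAL signal would be that of the mutant gene. WUS, the homeodomain gene of the organising centre, had a change of -0.55 and was not called. TOE3 (1.16 ± 0.15) and SMZ (1.01 ± 0.15), of the AP2-type floral repressors, were the 2 members that rose. LOB and HB51 (also known as LMI1), at -0.77 and 0.77, lay closest to the 1.8-fold limit without a call.

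Among 13 floral organ identity MADS genes tested, 5 rose and 1 had a probe called lower, with a median of 0.43. SHP1 (AT3G58780), a gene of the carpel margin and the valve border, had signals of 132, 103, 143 and 94 at day 4 and 400, 492, 392 and 469 at day 8. The days did not overlap, and SHP1 rose by 1.91 ± 0.17 (adjusted p = 2.2e-06). Its close paralogue SHP2 rose by 1.48 ± 0.16 with 1.54, 1.99, 1.19 and 1.19 on the arrays. TT16 (AT5G23260), the B-sister MADS gene of the ovule coat, gave 0.84, 1.57, 1.87 and 0.72 and rose by 1.25 ± 0.30 (adjusted p = 0.0038). Day 4 was well above background for it in only 1 of 4 channels, and its call was lost after loess without background correction, where the change was 0.29. SEP2 and SEP3, cofactors of the organ identity factors, rose by 0.91 ± 0.07 and 0.90 ± 0.10. The genes that specify petals, stamens and carpels were not called. AP3 had a change of -0.05, PI of 0.36 and AG of 0.42. AP1 had a change of -0.34. Its signal may hold both the transgene and the mutant gene, since the positions of its probes were not examined. SEP1 and SEP4, at 0.49 and -0.58, were closest to the limit without a call. STK was not well above background in any channel of either day, so no fold is given, although 1 of its 3 probes was called lower. That call was lost without replicate 1 and without replicate 4.

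**Figure D4:**
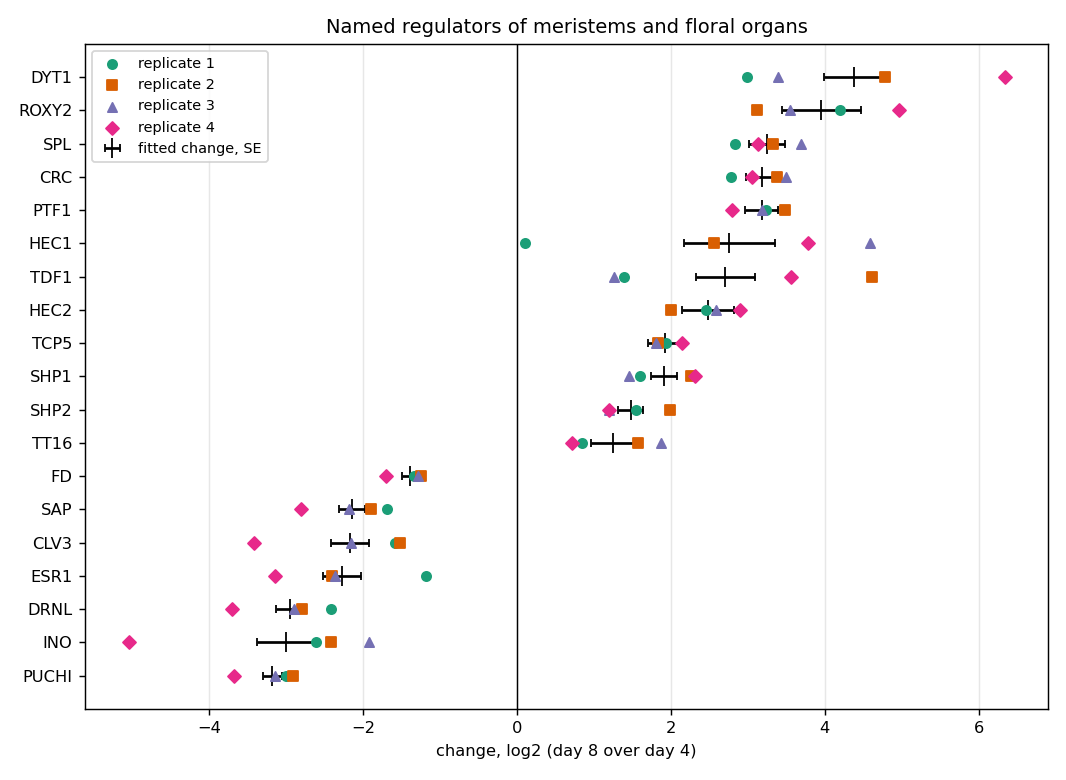
Change from day 4 to day 8 (x axis, log2) of 19 named regulators of meristems and floral organs (y axis). Coloured points are the 4 replicates and black bars the fitted change with its SE. The anther and carpel genes SPL (3.24), CRC (3.18) and SHP1 (1.91) lay above 0 on every array. The ovule gene INO (-3.00) lay below 0 on every array, as did PUCHI (-3.18), DRNL (-2.96) and CLV3 (-2.18).

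Of 20 regulators of the stamen tested, 7 rose (35%) and 1 fell (5%), against 12.7% and 5.56% of all loci tested. The median was -0.01, and the share called lower lay near that of all loci. The number called lower was 3 without replicate 1, 4 without replicate 2, and 2 without replicate 4, where 5 were called higher. SPL (AT4G27330, also called NOZZLE), which starts the sporogenous cells of the anther and the ovule, had signals of 231, 117, 42 and 208 at day 4 and 1647, 1177, 537 and 1814 at day 8. It gave 2.84, 3.33, 3.69 and 3.12 and rose by 3.24 ± 0.23 (adjusted p = 3.9e-07). The glutaredoxin genes ROXY1 and ROXY2 are known to act together in anther lobes, and here they were called in opposite directions. ROXY2 (AT5G14070) rose by 3.96 ± 0.51 with 4.19, 3.11, 3.55 and 4.97, well above background in 2 of 4 day 4 channels, while ROXY1 (AT3G02000) fell by 1.79 ± 0.11 with -1.59, -1.78, -1.70 and -2.08. TGA9 (AT1G08320), a bZIP partner of the ROXY proteins, rose by 2.65 ± 0.17, and all 4 arrays were above 2. The tapetal cascade begins with the bHLH gene DYT1 and the MYB gene TDF1. Neither was well above background in any day 4 channel and both were so in all day 8 channels, and they were at least 4.84-fold and 3.56-fold higher at day 8. The arrays of DYT1 spread from 2.99 to 6.34 and those of TDF1 from 1.26 to 4.61. JAG (-0.78) and SUP (-0.70), genes of early organ growth and of the stamen-carpel border, were closest to the limit without a call.

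Genes of the tapetum and the pollen wall were mostly not called. Of 14 tested, 4 rose and 2 fell, 8 were not called and the median was -0.15. A further 10 loci on the array did not pass the filter on dim probes. Among the 4 that rose, SWEET8, QRT2 and ACOS5 were measured in no day 4 channel, and a lower call was hardly possible for them. SWEET8 (AT5G40260), a sugar transporter needed for the pollen wall, gave 4.86, 4.26, 4.66 and 5.67. The arrays were close, no day 4 channel was well above background and all day 8 channels were, and SWEET8 was at least 14.8-fold higher at day 8. QRT2, a polygalacturonase gene named for the separation of pollen tetrads, was measured in 2 day 8 channels and in no day 4 channel and was at least 1.53-fold higher. ACOS5, an acyl-CoA synthetase gene of sporopollenin synthesis, was measured in 3 day 8 channels and in no day 4 channel and was at least 1.89-fold higher. Within the slide of replicates 1 and 2 it was not called. LAP5 (AT4G34850), a polyketide synthase gene of the same pathway, gave 0.43, 0.93, -0.39 and 4.41 and a fitted change of 1.34 ± 0.53 (adjusted p = 0.048). Without replicate 4 the change was 0.33 (adjusted p = 0.36), and the call was also lost without replicate 1 and without replicate 2. CALS5, the callose synthase gene of the wall around microspores, fell by 1.20 ± 0.13.

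Of 27 meiosis genes tested, 9 fell, 1 rose and 17 were not called, with a median of -0.76 and array medians from -1.04 to -0.54, and 24 of the 27 changes were negative. PHS1 (AT1G10710), which acts in the pairing of homologous chromosomes, fell by 1.29 ± 0.10 with -1.38, -1.06, -1.15 and -1.58. RCK (AT3G27730), a helicase gene of crossover formation, fell by 1.18 ± 0.18 with -1.84, -0.51, -1.07 and -1.28, and replicate 1 was the lowest and replicate 2 the closest to 0. UVI4-LIKE (also known as OSD1), which holds back the anaphase-promoting complex, fell by 1.17 ± 0.09. The cohesin gene SYN1 (AT5G05490, the REC8 of plants) was the 1 member that rose, by 1.49 ± 0.28 with 1.64, 0.70, 2.86 and 0.78. DMC1, the meiotic recombinase gene, had a change of 0.11 and was not called. After loess without background correction the list had 2 members called lower and none higher, with a median of -0.34. Without replicate 4, 2 members were called higher.

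Genes of the carpel, style and ovule were called in both directions. Of 34 tested, 9 rose and 5 fell, and the median was 0.19. CRC (AT1G69180), the YABBY gene of the carpel and the nectary, had signals of 3728, 1884, 2063 and 3371 at day 4 and 25570, 19648, 23284 and 28031 at day 8. The days were far apart on every array, and CRC rose by 3.18 ± 0.21 (adjusted p = 2.1e-07), a 9.05-fold difference. HEC2 (AT3G50330), a bHLH gene of the stigma and transmitting tract, gave 2.46, 1.99, 2.58 and 2.89 and rose by 2.48 ± 0.34. Its paralogue HEC1 rose by 2.76 ± 0.59, but its arrays ranged from 0.11 on replicate 1 to 4.58 on replicate 3, and within the slide of replicates 1 and 2 its change of 1.33 was not called (limma adjusted p = 0.102). NGA3, a B3-domain gene of style formation, rose by 1.96 ± 0.21, and KNU, a zinc finger gene that ends WUS expression in the floral meristem, by 2.12 ± 0.35. INO (AT1G23420), the YABBY gene of the outer integument of the ovule, gave -2.62, -2.42, -1.92 and -5.05 and fell by 3.00 ± 0.38. It was well above background in 4 day 4 channels and 2 day 8 channels, and replicate 4 was by far the lowest. STY1 and SRS5, of the SHI family of auxin-related style genes, fell by 1.09 ± 0.12 and 1.01 ± 0.10, and ETT, the auxin response factor that patterns the gynoecium, by 0.94 ± 0.10 with all arrays between -0.99 and -0.85. BEL1 (0.63) and WOX1 (0.62) were closest to the limit without a call.

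Regulators of petal and sepal growth comprised 37 tested loci, of which 8 rose and 4 fell, with a median of -0.07. DRNL (AT1G24590), an AP2/ERF gene first active where organs are about to form, gave -2.42, -2.79, -2.90 and -3.71 and fell by 2.96 ± 0.18 (adjusted p = 1.5e-07). Its paralogue ESR1 (AT1G12980, also known as DRN) fell by 2.28 ± 0.25 with -1.19, -2.41, -2.37 and -3.15. For both genes, replicate 1 was the closest to 0 and replicate 4 the farthest. PTF1 (AT3G02150, also known as TCP13) gave 3.24, 3.49, 3.18 and 2.80 and rose by 3.18 ± 0.21, with each of its 4 probes called. TCP5 rose by 1.93 ± 0.22, TCP10 by 1.47 ± 0.11, TCP17 by 1.22 ± 0.28, TCP3 by 0.99 ± 0.16 and TCP4 in 1 of 3 probes. These factors are known to end cell proliferation in leaves and petals. TCP2 and TCP24, at 0.47 and 0.21, were not called. ARGOS, a promoter of organ size, rose by 1.76 ± 0.23, and AN3, a growth coactivator gene also known as GIF1, fell by 0.95 ± 0.09. Of the growth-regulating factor genes, GRF8 (0.83) and GRF9 (-0.80) came closest to the limit, and none was called.

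Organ polarity genes, which set the upper and lower sides of organs, mostly did not pass the test. Of 23 tested, 3 fell and 2 rose, with a median of -0.45. Those that fell were INO, ETT and YAB5 (AT2G26580), a YABBY gene of the lower side, which gave -1.59, -1.33, -1.25 and -1.44 and fell by 1.40 ± 0.09. The 2 that rose were CRC and the KANADI gene KAN3 (0.99 ± 0.10, 3 arrays). PHB (-0.70) and AS2 (0.67) were closest to the limit.

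Genes of the cuticle were higher where they were called. Of 40 tested, 10 rose and none fell by limma at this limit, with a median of 0.17. At an unadjusted p below 0.05 there were 19 positive and 4 negative changes. With replicate 1, 2 or 4 left out, 1 member was called lower. CYP86A7 (AT1G63710), a fatty acid hydroxylase gene, had signals of 117, 75, 37 and 84 at day 4 and 2617, 1989, 2691 and 6274 at day 8. The days did not overlap, and it rose by 5.40 ± 0.43 (adjusted p = 8.6e-07), a 42.2-fold difference. SHN1 (AT1G15360), the AP2/ERF activator of cuticle genes, gave 3.62, 4.14, 4.50 and 4.46 and rose by 4.18 ± 0.21. Its paralogues SHN2 and SHN3 had changes of -0.47 and -0.16 and were not called. CYP86A4, GPAT6 and CYP77A6, which act in the synthesis of cutin monomers, rose by 3.96 ± 0.19, 3.40 ± 0.25 and 2.61 ± 0.14. For all 3, replicate 1 gave the smallest increase and replicate 4 the largest. The wax genes KCS5, CER2 and CER1 rose by 2.41 ± 0.21, 1.57 ± 0.17 and 1.43 ± 0.13, and MYB16 and MYB106, MYB genes of epidermal cell shape and cuticle, by 1.49 ± 0.14 and 1.48 ± 0.16. LACS2 (0.73) and LACS3 (-0.74) were closest to the limit without a call. Markers of the epidermis, trichomes and stomata moved with this group. Of 13 tested, 8 were called higher (61.5%) and 1 lower (7.69%), against 12.7% and 5.56% of all loci tested. The median was 0.87, with array medians from 0.30 on replicate 1 to 1.22 on replicate 4. The number called higher was 5 without replicate 3 and 5 without replicate 4. The stomatal regulators MUTE, EPF1 and FMA (FAMA) rose by 2.81 ± 0.31, 2.21 ± 0.30 and 1.74 ± 0.39 (FMA on 3 arrays, not called within the slide of replicates 1 and 2), and GL2, a regulator of trichomes, fell by 1.26 ± 0.09. Summed over the list, the signal was 12028 to 16502 at day 4 and 18567 to 29309 at day 8. Its part in the change of the cuticle genes was not tested.

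Of 34 mitotic genes tested, 25 fell and 9 were not called, with a median of -0.94, and all 34 changes were below 0. The changes were narrow in range, and the lowest was -1.36. CYCA2;4 (AT1G80370), an A-type cyclin gene, had signals of 4520, 3702, 2209 and 3931 at day 4 and 1896, 1278, 1029 and 1355 at day 8. It gave -1.25, -1.53, -1.1 and -1.54 and fell by 1.36 ± 0.07 (adjusted p = 3.9e-08). KINESIN-12B, a motor of the phragmoplast, fell by 1.31 ± 0.13, the spindle assembly gene TPX2 by 1.29 ± 0.11 and the B-type cyclin gene CYCB1;3 by 1.20 ± 0.09. All 4 genes were below 0 on every array. The Aurora kinase genes AUR1, AUR2 and AUR3 fell by 0.94 ± 0.08, 0.95 ± 0.12 and 0.92 ± 0.06, the anaphase activators CDC20.1 and CDC20.2 by 1.11 ± 0.08 and 1.15 ± 0.09, and MYB3R-4, a MYB activator of mitotic genes, by 0.99 ± 0.07. CYCB1;1, a common marker of dividing cells, had a change of -0.84 and CKS2 of -0.81, which missed the 1.8-fold limit. Since the members lay near the limit, the count moved with the scaling more than the median did. It was 20 with each array's median at 0, 12 after loess without background correction, where the median was -0.80, and 6 after normexp and loess.

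DNA replication genes were also mostly below 0, but fewer passed the limit. Of 32 tested, 5 fell and 2 rose, with a median of -0.66. The D-type cyclin gene CYCD3;1 (AT4G34160) gave -1.11, -0.92, -1.12 and -0.80 and fell by 0.99 ± 0.05. DEL3 and DEL1, atypical E2F genes, fell by 0.97 ± 0.07 and 0.94 ± 0.09, and the replication gene CDC45 by 0.95 ± 0.08. The 2 members that rose, 6.25% of those tested against 12.7% of all loci, encode inhibitors of the cell cycle. Such genes did not rise as a class. The inhibitor gene SIM of this list was not called higher, and the inhibitor gene KRP2 of the mitotic list had a change below 0. ICK1 (AT2G23430, also known as KRP1) gave 1.03, 1.21, 1.11 and 1.41 and rose by 1.19 ± 0.14, and LGO (AT3G10525, also known as SMR1) rose by 0.98 ± 0.15. MCM2 to MCM6 had changes from -0.76 to -0.67 and none was called. The number called lower was 12 within the slide of replicates 1 and 2 and 3 within the slide of replicates 3 and 4, and it was 9 without replicate 3.

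Nuclear photosynthesis genes did not pass the test. Of 46 tested, none was called in either direction by limma at this limit, 9 positive and 6 negative changes had an unadjusted p below 0.05, the median was 0.01 and the changes ranged from -0.45 to 0.78. RBCS2B, a Rubisco small subunit gene, had 0.78 with -0.61, 1.36, -0.10 and 2.46, so that its arrays did not agree in sign. The array medians of the list ran from -0.20 on replicate 1 to 0.37 on replicate 4. Within either slide alone, and without replicate 1, 3 or 4, 1 member was called higher.

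Of 29 jasmonate genes tested, 22 rose and none fell by limma, with a median of 1.82, and at an unadjusted p below 0.05 there were 25 positive changes and 0 negative. This was the largest share of higher calls among the 20 lists, but not without replicate 1, where 19 of 29 were called against 28 of 40 dehydration genes. After normexp and loess 8 were called. The arrays differed in size, with medians of 2.63, 1.38, 1.89 and 0.74 in replicates 1 to 4. DAD1 (AT2G44810), the anther lipase that releases the precursor in stamens, gave 4.70, 4.04, 3.89 and 4.99, was not well above background in any day 4 channel and was at least 12.5-fold higher at day 8. LOX2 (AT3G45140), a lipoxygenase gene, had signals of 7387, 5778, 6784 and 8330 at day 4 and 93290, 84149, 92796 and 87359 at day 8. Its arrays lay between 3.39 and 3.86, and it rose by 3.67 ± 0.18 (adjusted p = 3.2e-08). The lipoxygenase gene LOX3 rose by 3.21 ± 0.22 and LOX4 by 2.19 ± 0.26, the allene oxide synthase gene AOS by 1.02 ± 0.20, the cyclase genes AOC2, AOC1 and AOC3 by 4.54 ± 0.29, 3.67 ± 0.46 and 2.74 ± 0.33, the reductase gene OPR3 by 1.11 ± 0.14 and the conjugating enzyme gene JAR1 by 0.94 ± 0.10. LOX6 (0.28) and AOC4 (0.51) were not called. Breakdown of the active conjugate starts with CYP94B3 (AT3G48520), which gave 7.91, 5.32, 5.42 and 5.24 and rose by 5.97 ± 0.40, with replicate 1 far above the rest.

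Of the response genes, JAZ repressors rose together. JAZ8, JAZ1 and JAZ10 rose by 2.80 ± 0.37, 2.33 ± 0.31 and 2.22 ± 0.20. JAZ8 gave 3.86, 2.39, 3.21 and 1.74 on the arrays. JAZ1 gave 3.33, 2.43, 2.28 and 1.3, and JAZ10 gave 3.1, 2.25, 2.21 and 1.32. For each of these 3 genes replicate 1 was the highest array and replicate 4 the lowest. MYC2, the bHLH activator of the response, rose by 0.93 ± 0.20. MYB21 (AT3G27810), a MYB gene of stamen filament and petal growth, gave 4.31, 0.02, 2.07 and 2.46 and rose by 2.22 ± 0.44, well above background in 1 of 4 day 4 channels. Its relative MYB57 was not well above background in any channel of either day, and the receptor gene COI1 had a change of 0.20. VSP2, a storage protein gene used as a marker of the response, rose by 0.89 ± 0.17, and VSP1 (0.67) was not called. With replicate 1 left out, the median of the list was 1.38, and within the slide of replicates 3 and 4 it was 1.29 with 17 members called higher.

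Of 40 dehydration and abscisic acid genes tested, 27 rose, 13 were not called and none was called lower by limma, with 32 positive changes and 0 negative at an unadjusted p below 0.05. After normexp and loess 17 were called higher. The median was 1.45, and the arrays agreed closely, with medians of 1.23, 1.38, 1.46 and 1.53. Besides LEA7, the largest increases were those of LEA4-5 (5.01 ± 0.81), of the phosphatase gene HAI2 (4.13 ± 0.27), which damps abscisic acid signalling, and of RD26 (AT4G27410). RD26, a NAC gene induced by drought, had signals of 1859, 2093, 1161 and 1809 at day 4 and 40286, 30510, 17810 and 16636 at day 8. The days did not overlap, and it rose by 3.86 ± 0.17 (adjusted p = 2.1e-08), with each of its 4 probes called. The cold and drought genes COR15A and LTI30 rose by 3.85 ± 0.24 and 3.79 ± 0.45, the homeodomain genes HB-7 and HB-12 by 1.72 ± 0.16 and 1.69 ± 0.12, and the bZIP gene ABI5 by 1.55 ± 0.10. NCED3, the enzyme gene best known for abscisic acid synthesis under drought, had a change of 0.58 and was not called. Its relative NCED9 was not well above background in any day 4 channel and was at least 3.78-fold higher at day 8. The transcription factor genes ABF2, ABF3 and ABF4, at 0.15, 0.12 and 0.14, and the dehydrin gene RAB18 at -0.07 were not called.

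Of 30 genes of touch and rapid stress responses tested, 20 rose and 1 fell, with a median of 1.32 and array medians of 2.16, 1.22, 1.25 and 0.86. Without replicate 2, 2 were called lower, and after normexp and loess 9 were called higher and 0 lower. AOX1D (AT1G32350), an alternative oxidase gene, had signals of 32, 107, 111 and 76 at day 4 and 1470, 2247, 1296 and 805 at day 8. The days did not overlap, and it rose by 4.21 ± 0.31 (adjusted p = 4.6e-07). AT1G76640, which encodes the calmodulin-like protein CML39, gave 4.90, 3.65, 2.04 and 2.42 and rose by 3.25 ± 0.44. WRKY40 rose by 2.69 ± 0.28 and RHL41, a zinc finger gene also known as ZAT12, by 2.46 ± 0.30. In these 2 genes the slide of replicates 1 and 2 held the higher arrays. TCH4, a wall enzyme gene named for its response to touch, gave 2.48, 1.54, 2.21 and 1.39 and rose by 1.90 ± 0.54. ERF6 was the 1 member that fell, by 1.14 ± 0.29. WRKY53 (-0.79) and ERF13 (0.90) were closest to the limit without a call.

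Of 37 cell wall loosening and aquaporin genes tested, 19 rose and 4 fell, with a median of 0.91. After normexp and loess 6 were called higher and 2 lower. XTH25 (AT5G57550), a xyloglucan endotransglucosylase gene, gave 5.31, 4.86, 5.42 and 5.14. No day 4 channel was well above background, and XTH25 was at least 14.9-fold higher at day 8. XTH18 rose by 4.06 ± 0.52 with 4.29, 3.94, 4.68 and 3.33, and XTH17 and XTH33, not measured at day 4, were at least 6.13-fold and 5.05-fold higher. XTH17, XTH18 and XTH19 are close copies, and part of their signal may be shared. The expansin genes EXPA1 and EXPA10 rose by 2.01 ± 0.17 and 2.00 ± 0.18. The plasma membrane aquaporin genes PIP2B, PIP2A and PIP1A rose by 3.26 ± 0.27, 2.28 ± 0.11 and 2.11 ± 0.10. PIP2A had signals of 4344, 2561, 3940 and 6286 at day 4 and 22944, 14631, 19867 and 23028 at day 8, and the days did not overlap. The expansin genes EXPB3, EXPA9 and EXPA4 fell by 1.12 ± 0.19, 0.99 ± 0.13 and 0.92 ± 0.13, and XTH8 by 0.94 ± 0.16.

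Auxin genes were called in both directions, 10 of 38 higher and 4 lower, with a median of 0.05. The group that rose held the enzymes that lead from tryptophan through indole-3-acetaldoxime. CYP79B3 (AT2G22330) gave 4.09, 4.63, 3.27 and 3.1 and rose by 3.77 ± 0.43, CYP79B2 rose by 2.53 ± 0.44, and the nitrilase genes NIT1 and NIT2 by 1.75 ± 0.10 and 7.25 ± 0.80. The same oxime is also a precursor of indole glucosinolates. The conjugating enzyme gene GH3.1 was measured in 3 day 8 channels and in no day 4 channel and was at least 1.86-fold higher, a call that was lost within the slide of replicates 3 and 4. The auxin influx carrier gene AUX1 fell by 1.15 ± 0.09. The YUC1, YUC2 and YUC4 genes of the main route of auxin synthesis, at -0.61, -0.84 and -0.64, were not called.

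Gibberellin genes were also split, with 7 of 26 higher and 5 lower and a median of 0.11. Without replicate 2, 4 were called higher and 4 lower. GASA1 (AT1G75750), a small peptide gene known to respond to gibberellin, gave 4.2, 3.58, 4.81 and 3.64 and rose by 4.06 ± 0.19 (adjusted p = 3.2e-08). The inactivating oxidase gene GA2OX6 rose by 4.12 ± 0.34, while the inactivating GA2OX4 fell by 2.19 ± 0.11. Within the synthetic oxidases, GA20OX1 (AT4G25420) gave -2.79, -1.92, -2.69 and -2.50 and fell by 2.47 ± 0.14, whereas GA20OX2, GA20OX3 and GA3OX1 rose by 0.90 ± 0.11, 1.48 ± 0.52 and 1.1 ± 0.30. GA3OX3 fell by 1.52 ± 0.16. The DELLA gene RGL2 at 0.78 was closest to the limit without a call.

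Flavonoid and phenylpropanoid genes were called in both directions. Of 27 tested, 8 rose and 3 fell, with a median of -0.01. The general phenylpropanoid genes PAL1, 4CL1 and 4CL2 rose by 1.81 ± 0.18, 1.62 ± 0.15 and 0.86 ± 0.11, and PAL4 was measured in no day 4 channel and was at least 3.12-fold higher at day 8. The flavonol regulators MYB12 (AT2G47460) and MYB11 fell by 1.56 ± 0.10 and 1.52 ± 0.12. MYB12 gave -1.68, -1.49, -1.67 and -1.39, and each of its 3 probes was called. TT4, the chalcone synthase gene at the entry of the flavonoid branch, fell by 0.97 ± 0.18. The anthocyanin regulators PAP1 (AT1G56650) and MYB90 rose by 1.29 ± 0.46 and 1.3 ± 0.33. PAP1 gave 1.18, 2.3, 1.39 and 0.28 and MYB90 gave 0.79, 2.29, 1.62 and 0.50, with replicate 2 the highest array for both, while the anthocyanin enzyme genes DFR (-0.49) and LDOX (-0.08) were not called.

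Hypoxia genes, among which FTM1 is also counted, held 5 members that fell and 2 that rose of 13 tested, with a median of -0.14 that turned to 0.07 after loess without background correction. Without replicate 2, 1 member was called higher. AT5G39890 and AT5G15120, which encode the oxygen-dependent oxidases PCO2 and PCO1, fell by 2.18 ± 0.20 and 1.41 ± 0.13. AT3G10040, which encodes the trihelix factor HRA1, fell by 1.66 ± 0.20 and LBD41 by 1.03 ± 0.17. The fermentation genes did not follow them. AT4G33070, which encodes the pyruvate decarboxylase PDC1, rose by 2.11 ± 0.18 with 1.48, 2.65, 2.46 and 1.84, and ADH1 had a change of 0.01. ERF71 gave 1.66, 1.5, -0.18 and 0.10, positive on the slide of replicates 1 and 2 only, and was not called.

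Markers of cell types other than those above were checked beside these results. Over all loci tested, 12.7% were called higher and 5.56% lower, and the 18.2% of xylem markers called higher lay near the first share. Probes measured in no day 4 channel could pass the filter through their day 8 channels. For such markers (PAP85, SESA1, SUC7, RHD2 and SHV2 among them) a lower call was hardly possible, so the counts lean to higher calls. Of 14 mature pollen markers on the array, 5 were not well above background in any channel of either day (MGH3, PPME1, STP11, VGD1 and VGDH1), and the summed signal was 9078 to 12801 at day 4 and 9121 to 12670 at day 8. Of the 5 pollen markers tested, 3 were called higher and none lower. GEX1, a gene of the gametes, rose by 3.07 ± 0.24, and SUC7 was measured in no day 4 channel and was at least 2.12-fold higher. PRK4 (AT3G20190), a receptor kinase gene of pollen, rose by 1.29 ± 0.30 (limma adjusted p = 0.0026) with 1.81, 0.00, 2.34 and 1.03. Its call was lost within the slide of replicates 1 and 2. The call was also lost with its probes averaged (change 0.43, limma adjusted p = 0.21) and after loess without background correction (change 0.29). Of 14 seed storage and oil body markers, 8 were not above background in any channel, and the summed signal was 73.0 to 456 at day 4 and 253 to 752 at day 8. Of the 3 seed markers tested, 2 were called higher and none lower, PAP85 and SESA1. SESA1 was measured in 3 day 8 channels and in no day 4 channel and was at least 1.65-fold higher. PAP85, a vicilin-like storage protein gene, was measured in no day 4 channel and was at least 9.02-fold higher with 4.56, 4.11, 4.28 and 6.72. Of 8 root markers tested, 3 were called higher and 2 lower. WOX5 (AT3G11260), which marks the organising centre of the root, gave 3.66, 2.88, 2.56 and 1.90 and rose by 2.75 ± 0.29, and RHD2 and SHV2, genes of root hairs, were measured in no day 4 channel and were at least 2.28-fold and 1.24-fold higher. PHO1 fell by 1.74 ± 0.29. Of 11 xylem and secondary wall markers, 2 were called higher, XCP1 (1.68 ± 0.14, 3 arrays) and VND7 (1.08 ± 0.10), and all 11 changes were above 0 with a median of 0.63. The summed signal of this list was 5288 to 9205 at day 4 and 8954 to 13882 at day 8. The part of these cell types in the results above was not tested.

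Of 12 genes often used as references, 10 were not called, and the 2 called were higher (16.7%, against 12.7% of all loci tested). ACT2, ACT7 and ACT8 had changes of 0.06, -0.02 and 0.27, PP2AA3 of -0.18, PEX4 (the gene of the ubiquitin-conjugating enzyme UBC21) of -0.06 and UBQ5 of -0.10. TUB2, TUB4 and CYP5 had -0.27, -0.28 and -0.23, and GAPA had 0.33. UBQ10 was called higher at 0.91 ± 0.09 with 1.15, 0.87, 1.1 and 0.52, and without replicate 2 its change was 0.84, just under the limit. GAPC1 was called higher at 1.76 ± 0.31 and was well above background in 2 of 4 day 4 channels. Its change was 0.73 after loess without background correction, which was not called.

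The interval was next compared with the first 2 days after the start of Dex treatment, which used other samples. By the methods of the study, day 0 tissue was collected right after a mock solution. Tissue of day 2, day 4 and day 8 came from Dex-treated plants. A contrast of the 2 changes in one fit called 3969 loci (19.0%), of which 2337 had the higher change from day 4 to day 8 and 1630 the lower. Of the 4 arrays of the first interval, 2 had deposited ratios that their scanner files did not match, and these ratios were kept. With only the arrays that matched, the contrast called 3645 loci. The 2 intervals overlapped in part. Of the 2566 loci whose brightest probe was called higher from day 4 to day 8, 986 (38.4%) were also called higher from day 0 to day 2. Of all loci tested, 8.47% were called higher in the first interval. The shared loci made up 55.7% of the 1770 called higher from day 0 to day 2, where 12.3% of all loci tested were called higher from day 4 to day 8 by the brightest probe. A further 207 (8.07%) had been called lower in the first interval, against 5.42% of all loci tested. Of the 1094 called lower from day 4 to day 8, 159 (14.5%) were called lower in the first interval, against the same 5.42%, and 72 (6.58%) were called higher, against 8.47%. Arrays of the 2 intervals lay on different slides, and only the first interval set mock against Dex-treated tissue. Slide, Dex treatment and interval therefore cannot be told apart in this contrast.

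**Figure D5:**
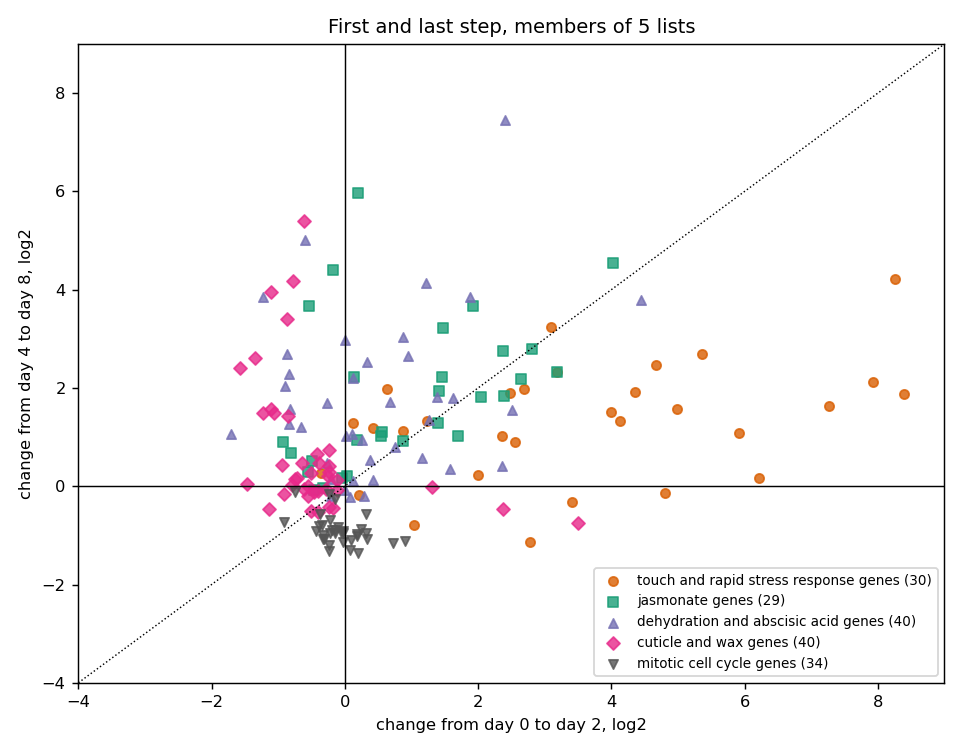
Change from day 4 to day 8 (y axis, log2) against change from day 0 to day 2 (x axis, log2) for the tested members of 5 gene lists, one point a locus. Touch genes lie mostly right of the dotted line of equal change (median 3.14 in the first interval and 1.32 in the last), the 10 cuticle genes called higher in the last interval lie left of 0, and mitotic genes lie below 0 in the last interval (median -0.94) and near 0 in the first (-0.14).

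The lists differed in how they behaved in the 2 intervals. Touch and rapid stress genes had medians of 3.14, -2.0 and 1.32 in the first, second and last interval, and the contrast called 19 of 30 lower and 1 higher in the last interval than in the first. The second interval shares the day 4 samples with the last one. Dehydration genes had medians of 0.19, 0.32 and 1.45 in the same order, and the contrast called 21 of 40 higher in the last interval and 3 lower. Jasmonate genes had 0.56, -0.17 and 1.82, with 8 of 29 called higher and none lower. Cuticle genes had -0.55, 0.36 and 0.17, with 19 of 40 called higher and 3 lower. CYP86A7, for example, had -0.61 in the first interval and 5.40 in the last. Cell wall genes had -0.45, 0.43 and 0.91, with 23 of 37 called higher and 1 lower. Mitotic genes had -0.14, 0.08 and -0.94, and 17 of 34 were called lower in the last interval and none higher. DNA replication genes had -0.75, 0.19 and -0.66, and 5 of 32 were called higher and 2 lower.

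Single loci differed far more. AT5G52390 gave the largest difference upward. It had fallen by 4.12 from day 0 to day 2 and rose by 5.95 ± 0.44 from day 4 to day 8, a difference of 10.07 ± 0.62 (adjusted p = 2.6e-07), with day 4 well above background in 2 of 4 channels. The nitrate transporter genes NRT2.6 and NRT2.5 stood at opposite ends. NRT2.6 (AT3G45060) had -2.80 in the first interval and 4.94 ± 0.58 in the last, a difference of 7.74 ± 0.83. NRT2.5 (AT1G12940) had 5.51 in the first. In the last it was not well above background in any day 8 channel and was at least 3.62-fold lower there, so its difference between the intervals has no measured size. BGLU27, a beta-glucosidase gene, had the largest difference downward (-9.30 ± 0.55), with 6.76 in the first interval and -2.54 ± 0.39 in the last, where it was well above background in 1 of 4 day 8 channels. GLIP1, a defence lipase gene, and DMP1, a membrane protein gene, had differences of -8.45 ± 0.64 and -8.35 ± 0.46. Their changes from day 4 to day 8 were -1.74 and -1.36, and each was well above background in 1 of 4 day 8 channels. GLIP1 gave -1.03, -0.37, -2.69 and -2.87 and DMP1 gave -0.19, -0.85, -2.21 and -2.18 on the arrays. Within the slide of replicates 1 and 2 neither was called.

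The loci that changed at least 4-fold with the smallest spread over the 4 arrays fell and rose in equal number. AT1G36940 gave -2.07, -2.02, -2.14 and -2.04 (SD 0.055), and the MYB gene MYB62 gave -2.05, -2.04, -2.02 and -2.17. LBD19, of the LOB-domain family, gave -2.55, -2.60, -2.56 and -2.42. AT5G07610, the NAC gene NAC048 and AT4G28140 rose by 2.63, 3.34 and 2.14 with an SD of 0.085, 0.092 and 0.108. The 6 loci with the largest spread were all called higher, and for AT2G29300 and AT5G44050 day 4 was not well above background in any channel. GAT1_2.1, a glutamine amidotransferase gene, gave 5.76, 0.10, 0.61 and 3.21, and without replicate 1 its change was 1.37 in place of 2.42 (adjusted p = 0.073), and its call was also lost without replicate 4. CYP89A3 gave 4.18, 1.20, 4.62 and 6.62 and kept its call with any array left out, as did AT1G54890 (5.94, 2.11, 1.03 and 3.51) and AT5G44050 (4.66, 1.56, 3.16 and -0.63), though AT5G44050 was not called within the slide of replicates 3 and 4. AT2G29300 gave -0.01, 1.15, 1.87 and 5.29, and its call was lost without replicate 4 (adjusted p = 0.097) and without replicate 3 (adjusted p = 0.054). AT4G16000 gave 4.21, 3.76, -0.50 and 1.83, with a change of 1.62 without replicate 1 (adjusted p = 0.089) and of 1.79 without replicate 2 (adjusted p = 0.079).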

How the data were processed

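Total RNA of inflorescence tissue was hybridised to two-colour Agilent arrays, 12 in all, of which the 4 arrays of day 4 and day 8 are described here. The deposited log10 ratios, Cy5 over Cy3, had been corrected for background and dye bias in Feature Extraction 10.5.1.1, the software of the scanner. They were turned to later day over earlier day, by the dyes given in the labels, and converted to log2. The deposited intensities (median pixel and local background, and processed signals) served for detection, bounds and alternatives. The scanner file matched the ratio table for 10 arrays. It did not for 2 arrays of the first interval, where the ratios of file and table correlated at 0.31 and 0.27. The scanner values of these 2 arrays were not used, so none of their spots was left out as marked. Their deposited ratios stayed in the fit. Control spots and 683 marked spots were left out. A probe entered the test if 50% or more of the channels of any 1 time point were well above background (28246 probes, 20906 loci).

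limma 3.58.1 (R 4.3.3) was fitted to all arrays with 3 interval coefficients, a dye term and an intensity trend, with Benjamini-Hochberg adjustment over all probes, after the procedure was tested on simulated data. The fit leaves 8 residual degrees of freedom, so precision is set by the small number of arrays. Bounds used processed signals scaled between arrays by Aquantile: the mean of the bright day was set against the higher of the lowest signal well above background on each array and the probe's own signal. Such bounds are open to dye bias except where the dye swap balances it. The authors' own error-model calls were not used. Symbols came from a RefSeq gene table, which held 99.3% of the tested loci.

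The members and lists were chosen with earlier results of these data known. Loci were named by rule: the 15 largest increases and decreases, up to 4 called members and up to 2 uncalled members nearest to 1.8-fold in each list, the 6 largest and smallest SDs, the 6 largest differences from the first interval in each direction, and reference genes. Other members of the lists were named after their values were seen. Alternatives covered the arrays fitted, dye term, background correction, normalization, centring, filters, fold minimum, probe summary, slide, replicate block and each array left out. Normexp with 1 background value per channel was added after seeing the data. No promoter, probe or protein sequences were used here.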

Additional observations from a re-analysis of the deposited data

Results flagged for a closer look

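In 220 sets of 4 array values, 11 had 1 array far from the other 3 by Dixon's criterion at the 95% level. Chance alone marks about 1 set in 20, which is also the share marked here. Replicate 1 was the distant array for 7 of them. Its share of probes beyond 1.8-fold was 24.3%, the median of the mitotic genes was -1.20, that of the petal and sepal regulators was 0.088, and that of the seed markers was 3.73, which is the value of SESA1 (3.73). For CYP94B3 replicate 1 gave 7.91 and for ATA20 -1.03. Replicate 2 was distant for DEL3 (-0.93) and GLP6 (-1.66), replicate 3 for GRF8 (1.1) and replicate 4 for GAPA (0.75). Whether anything set these arrays apart was not tested.

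In the contrast with the change from day 0 to day 2, the 6 largest positive differences were those of AT5G52390 (10.07), NRT2.6 (7.74), AT5G37860 (7.64), AT3G02480 (7.47), RXF26 (6.83) and GLC (6.81). The 6 largest negative differences were those of BGLU27 (-9.30), GLIP1 (-8.45), DMP1 (-8.35), AT2G04070 (-8.31), GLP6 (-8.24) and NRT2.5 (-8.19). These are fitted values. AT2G04070 was not well above background in any channel of day 4 or day 8, NRT2.5 in any channel of day 8 and AT5G37860 in any channel of day 4, so the sizes for these 3 loci are not measured. The arrays of the 2 intervals lay on different slides, and only the first interval set mock against Dex-treated tissue. Slide, Dex treatment and interval therefore cannot be told apart.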

How the results depend on the processing

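The counts depended most on background correction with normalization and on the fold minimum. The alternatives for background correction also used loess and only the arrays with a matching scanner file. On those arrays the deposited ratios gave 3799 called loci. The 3821 called loci became 2484 after loess without background correction, 634 after normexp and loess, and 2306 after normexp with 1 background value per channel, which was chosen after seeing the data. Higher calls became 505 after normexp and loess. Lower calls, 1163 at first, became 379, 129 and 344 in the same order, and 728 with a 2-fold minimum. Without a fold minimum, 12555 loci were called, 5121 higher and 7414 lower, so that the majority turned to lower. Of the loess calls, 1970 higher and 378 lower were shared with the reported ones. Normexp on each spot's background raised the lower quartile of the signals from 29.0 to 110.5 up to 59.3 to 1359. With 1 background value per channel it was 57.4 to 105.3. With 1 array left out, calls ranged from 3597 to 3882, higher calls from 2501 to 2745 and lower calls from 1012 to 1352. With 1 day 4 to day 8 array left out, the contrast with the first interval ranged from 3833 to 3960. Arrays of the first interval were not left out one by one. The contrast called 3645 loci with only the arrays whose scanner file matched the ratio table. By the methods each of 4 sample sets gave 3 arrays, and the labels do not say whether the replicate number is the set. Residuals of arrays with the same number correlated at -0.37 to -0.04. With the replicate block 3801 loci were called (2645 higher and 1155 lower) and the calls of STK and LAP5 were lost. AT4G16000 turned to -0.0051 after normexp and loess. After loess without background correction, the number of genes called lower was 10 (15 reported) in the meristem list and 2 (9 reported) in the meiosis list, and the number called higher was 21 (22 reported) for jasmonate, 23 (27 reported) for dehydration and 20 (20 reported) for touch. After normexp and loess the number called higher was 8 for jasmonate, 17 for dehydration, 9 for touch, 6 for cell wall loosening (19 reported) and 0 for floral MADS genes (5 reported), and the number called lower was 10 for meristem, 1 for meiosis and 6 for mitotic genes (25 reported). Of 137 called loci named by rule, 93 lost their call or changed sign there. The list medians of the stamen, petal and sepal, flavonoid, photosynthesis, auxin, hypoxia and reference genes, from -0.14 to 0.053, changed sign in at least 1 alternative. Changes of dim loci are limited by signal over background.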
